A study of Mus musculus with 6 samples.

Results

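The cytosolic ribosomal protein genes encode the proteins of the ribosome that translates nuclear-encoded mRNA. They were chosen by name: protein-coding genes of GENCODE M21 (GRCm38) whose symbol begins with Rpl or Rps and a digit, with Rpsa, Rplp0, Rplp1 and Rplp2, and without the Rps6k kinases, Rps19bp1 and 6 protein-coding genes with a -ps name. The rule found 85 genes among the 55401 genes of the count tables, 52 of the large (Rpl) and 33 of the small (Rps) subunit, spread over 19 chromosomes. RNA sequencing measured them in mouse CD4+ T cells that had been enriched from spleen as naive cells with magnetic beads and stimulated for 24 h through CD3 and CD28. In 3 libraries, called Satb1 cKO, the mice carried Satb1 flox/flox alleles and CD4-Cre, a recombinase active from the CD4-expressing stage of thymocytes, and the other 3, called control, are labelled WT. Whether controls carried Cre or floxed alleles is not labelled, so effects of Cre itself and of the deletion cannot be told apart. Separate mice per library are not stated either, and the spread behind each p-value may therefore be technical.

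Ribosomal proteins assemble with ribosomal RNA into a large subunit, which forms peptide bonds, and a small subunit, which reads the mRNA. Their mRNAs are among the most abundant of a proliferating cell, and T cells enlarge their ribosome content when they leave quiescence. Most of these mRNAs begin with a 5′ terminal oligopyrimidine (TOP) tract, through which mTOR and the RNA-binding protein LARP1 adjust their translation and stability together. Individual ribosomal proteins are made in step with each other, and free RPL5 and RPL11 are known to bind MDM2 and stabilise p53 when assembly fails.

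The start of the transcript is shown for 8 of the genes with the largest called changes, because the tract is what these mRNAs are known to share. The 8 were not taken in order of size. Each stretch runs from 5 bases before to 25 bases after the RefSeq start on the transcribed strand (GRCm38.p6), and capitals mark the first C followed by at least 4 further bases that are C or T. Rpl38, Rplp2, Rps2 and Rpl41 rose in Satb1 cKO, while Rps12, Rps24, Rps7 and Rpl5 fell, and for Rps24 the first of its annotated starts is given.
Rpl38 (chr11:114668575-114668604, plus strand): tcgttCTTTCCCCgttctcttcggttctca
Rplp2 (chr7:141447646-141447675, plus strand): tCTTCCTTTCgccgccggacgccgccgagg
Rps2 (chr17:24720058-24720087, plus strand): gatctcgcgCTTCTTggagcactataaatt
Rpl41 (chr10:128549144-128549173, minus strand): ggctcggaagtgacgacaccgagcacgcca
Rps12 (chr10:23787185-23787214, minus strand): cggccaccgccggCCTTTTCCCCTgccgcc
Rps24 (chr14:24490673-24490702, plus strand): ggtCCTTCCTTgcgcgttgatatgattggt
Rps7 (chr12:28635929-28635958, minus strand): tccacccacctaCTTCCgctgtccccacct
Rpl5 (chr5:107900523-107900552, plus strand): cttgcgtgctggtggtgctacatactgcgc
Such a stretch was accepted anywhere in the window, whereas a TOP tract begins the mRNA. It began at position 1 in Rpl38, 5 in Rps2, 8 in Rps7 and 9 in Rps12. In Rplp2 and Rps24 it began before the annotated start. Whether the annotated starts are those used in these cells was not tested. Genes with a stretch in this window stand among those that rose and among those that fell, and so do genes with none there (Rpl41 and Rpl5). Of other genes with large called changes, Rplp0 and Rps27l held such a stretch, and Rpl27, Rpl37, Rpl7l1, Rps4x and Rpsa held none. RefSeq start windows were found for 65 of the 85 genes (77 windows), and 62.3% of these windows held such a stretch, against 34.6% of all 32851 windows. Counted by gene, a stretch was found for 5 of the 9 genes with a window that rose and for 10 of the 15 that fell. It was found for 27 of the 37 that did not pass the test and 1 of the 4 not tested. Over the 300 bases around the start (250 before, 50 after), searched on both strands, the ETS core CCGGAAGT was in 15.6% of member windows and 3.89% of all windows. The YY1 core AAGATGGC was in 10.4% of member windows and 2.75% of all windows. A match is a description of the letters and not a binding site.

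Satb1 itself was lower in each cKO library, with 426, 546 and 462 CPM in Satb1 cKO libraries, against 712, 851 and 727 CPM in control libraries (log2 fold change -0.68, SE 0.087, adjusted p = 9.70e-05). Reads were counted over the whole gene, so these values do not show how complete the deletion was. Read totals on genes ranged from 14895389 to 20266626 per library. Levels are in CPM, gene counts relative to the TMM-scaled library size. Adjusted p-values are those of edgeR's quasi-likelihood test, corrected by Benjamini and Hochberg's method over all 13364 tested genes. Markers of T cells (10 genes) summed to 2339 to 2419 CPM in Satb1 cKO and 2991 to 3097 CPM in control libraries, and without Cd4 to 2129 to 2207 CPM in Satb1 cKO and 2309.5 to 2396 CPM in control. All 10 were detected, 7 fell (70%) and 1 rose (10%; Cd5, log2 fold change 0.34, SE 0.055), against 20.7% lower and 21.6% higher of all tested genes. Cd4, the coreceptor that names these cells, fell, with 210.2, 212 and 204 CPM in Satb1 cKO libraries, against 721, 681 and 701 CPM in control libraries (log2 fold change -1.75, SE 0.038). Sums for other cells were higher in Satb1 cKO: 9 red cell markers summed to 310.4 to 1863 CPM against 25.5 to 32.0 CPM in control, 10 myeloid markers to 63.7 to 158 CPM against 17.6 to 22.6 CPM in control. For 8 B cell markers the sums were 11.96 to 14.8 CPM in Satb1 cKO and 5.02 to 10.7 CPM in control, and for 6 NK cell markers 12.7 to 19.1 CPM in Satb1 cKO and 5.46 to 9.06 CPM in control. Most of the NK sum was Eomes, at 11.0 CPM in Satb1 cKO and 5.26 CPM in control, while Ncr1 had 0.319 and 0.384 CPM. Of the tested markers, 7 of 7 red cell, 6 of 6 myeloid, 2 of 6 B cell (33.3%) and 2 of 3 NK cell genes (66.7%) rose. In these lists 0 fell, beside 21.6% higher and 20.7% lower of all tested genes. No gene of these lists was at 0 in all libraries. The part of these cells in the ribosomal protein values was not tested. In bulk RNA, fewer cells of a type and less RNA per cell cannot be told apart.

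Ribosomal protein genes differed little between Satb1 cKO and control T cells, and they did not move as a block. Of the 81 that had enough reads to be tested, 11 rose and 20 fell, together 38.3%, against 42.3% called over all tested genes (21.6% higher and 20.7% lower). The median log2 fold change was 0.0014 over the 81 genes and 0.0034 over all tested genes. The median absolute log2 fold change was 0.096 in the set and 0.22 over all tested genes, and 0 of the 81 reached 1.5-fold, against 18.6% of all tested genes. The percent difference from the control level ran from 9.001% to 20.2% for the called rises and from -14.3% to -7.01% for the called falls.

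Libraries of a group lay close to each other. Standard errors of the 31 called genes ran from 0.024 to 0.062 on the log2 scale, and in all 31 the 3 Satb1 cKO libraries did not overlap the 3 control libraries. Over the whole set, 18 genes had every cKO library above every control library and 25 had every cKO library below, of 81 tested, against 27.0% and 26.5% of all tested genes. For 72 of 81 genes (88.9%) the 95% interval of the fold change lay within 1.25-fold in either direction, against 33.7% of all tested genes.

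**Figure D1:**
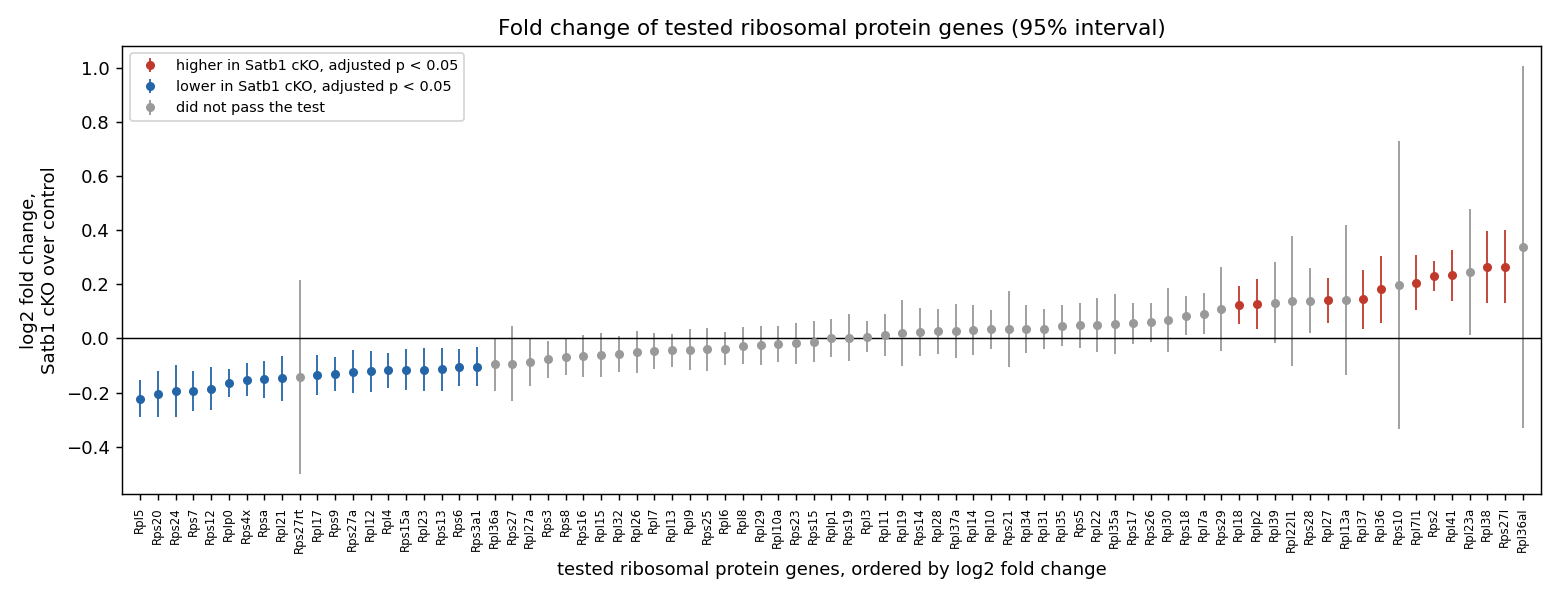
Log2 fold change of Satb1 cKO over control for the tested ribosomal protein genes reported by name, in ascending order, with 95% intervals. Called falls (blue) reach -0.22 (Rpl5) and called rises (red) 0.27 (Rps27l), and wide intervals belong to genes with few reads such as Rpl36al, Rps10 and Rps27rt.

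**Figure D2:**
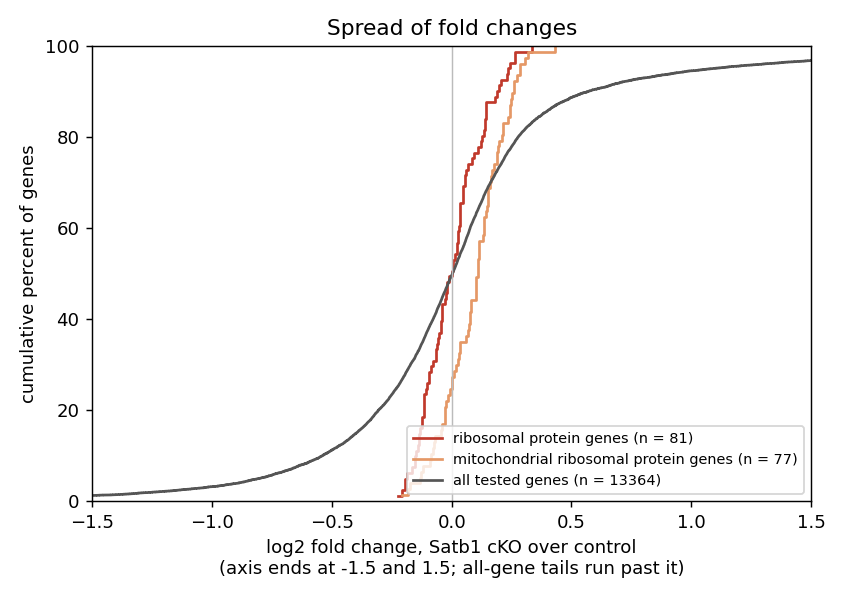
Cumulative percent of genes against log2 fold change of Satb1 cKO over control, for ribosomal protein genes (n = 81), mitochondrial ribosomal protein genes (n = 77) and all tested genes (n = 13364). The cytosolic curve is steep and crosses 50% near 0, at its median of 0.0014, while the mitochondrial curve has its median at 0.11.

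The share of gene reads on the 85 genes was slightly smaller in Satb1 cKO. It was 7.48%, 7.41% and 7.23% in Satb1 cKO libraries, against 7.61%, 7.71% and 7.59% in control libraries, and the groups did not overlap. The difference of -0.26 percentage points had p = 0.1 in a two-sided exact permutation test, which is the smallest value that 3 against 3 libraries allow. Mitochondrially encoded genes also summed to less, with 11885, 13929 and 13153 CPM in Satb1 cKO, against 15349, 15767 and 15211 CPM in control, and their part in the share was not tested. With these, globin, immunoglobulin and T cell receptor genes left out of the totals, the difference was -0.28 percentage points. Of all reads in the tables, with reads assigned to no gene included, the share was 6.29%, 6.22% and 6.06% in Satb1 cKO, against 6.27%, 6.34% and 6.22% in control. The groups overlapped on that scale (difference -0.084 percentage points, exact permutation p = 0.4), and reads on no feature were 7.45 ± 0.149% of reads in Satb1 cKO and 9.34 ± 0.158% in control (SD, n = 3 each). Rps2, Rplp0, Rplp1, Rps12 and Rpl4 had the highest levels per kilobase of principal mRNA, at 3047, 2782, 2736, 2576 and 2269 CPM per kilobase on average over the 6 libraries. The median of the set was 829.6 CPM per kilobase. Per kilobase of all exons, the order was Rplp1, Rplp0, Rps3a1, Rps2 and Rpl4. Rpl4, of the exit tunnel, had 3237, 3475 and 3332 CPM in Satb1 cKO libraries, against 3620.1, 3673 and 3601 CPM in control libraries (log2 fold change -0.12, SE 0.029, adjusted p = 0.00763). Rps3a1, of the small subunit platform, had 1737, 1845 and 1711 CPM in Satb1 cKO libraries, against 1908, 1908 and 1875 CPM in control libraries (log2 fold change -0.10, SE 0.033, adjusted p = 0.0241). Both were lower in every cKO library than in any control library.

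The subunits are set beside the 21.6% higher and 20.7% lower of all tested genes, and whether they differ was not tested. Of 48 tested large subunit genes, 8 rose (16.7%), 8 fell (16.7%) and 32 did not pass the test, with a median log2 fold change of 0.024. Subunits were taken from the symbol, so these rises include Rpl7l1, an assembly factor described below. Of 33 small subunit genes, 3 rose (9.09%), 12 fell (36.4%) and 18 did not pass, with a median of -0.065. Reads on large subunit genes made up 57.0%, 56.7% and 56.7% of the set's reads in Satb1 cKO, against 56.5%, 56.5% and 56.7% in control (exact permutation p = 0.1). The lowest cKO and the highest control library were equal to the decimals shown, and the means differed by 0.25 percentage points.

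Among the genes that rose, Rps2 had the smallest p. It encodes a small subunit protein at the entry of the mRNA channel and had the highest level per kilobase of principal mRNA in the set. Rps2 (ENSMUSG00000044533.15, chromosome 17, 24718116 to 24721929, plus strand, GRCm38) had 3585, 3586 and 3629.6 CPM in Satb1 cKO libraries, against 3115, 3074 and 3008 CPM in control libraries (log2 fold change 0.23, SE 0.025, adjusted p = 2.68e-05). Every cKO library lay well above every control library. Of its 100-base windows, 58.5% also occur in transcripts of other annotated loci. Reads with several alignments stand on a line of their own in the tables (3.03 ± 0.124% of reads in Satb1 cKO and 3.05 ± 0.0046% in control, SD, n = 3 each), and how many of them came from Rps2 was not tested.

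Other rises included short large subunit proteins. Rpl41 encodes a very short, basic peptide of the large subunit, with a coding length of 75 bases, and had 501, 488 and 483 CPM in Satb1 cKO libraries, against 419, 438 and 395 CPM in control libraries (log2 fold change 0.23, SE 0.043, adjusted p = 0.00113). Rpl38, a large subunit protein known from a mouse mutant with altered body patterning, had 119, 105 and 109.8 CPM in Satb1 cKO libraries, against 94.1, 97.8 and 86.3 CPM in control libraries (log2 fold change 0.26, SE 0.060, adjusted p = 0.00444). For both genes the highest cKO library was replicate 1, and all cKO libraries stood above all control libraries. Rpl36, of the large subunit, had 408, 364 and 369 CPM in Satb1 cKO libraries, against 319, 359 and 329 CPM in control libraries (log2 fold change 0.18, SE 0.056, adjusted p = 0.0215), and its lowest cKO and highest control library were close. Rpl37, of the large subunit, had 263, 261 and 258 CPM in Satb1 cKO libraries, against 234, 253 and 221 CPM in control libraries (log2 fold change 0.14, SE 0.049, adjusted p = 0.0352), and its groups were separated by a narrow gap as well. Both calls were lost when single libraries were left out: without control replicate 3 the adjusted p was 0.0842 for Rpl36 and 0.166 for Rpl37 (log2 fold changes 0.16 and 0.096), and both were also lost without control replicate 1 (0.0616 and 0.0586) or Satb1 cKO replicate 1 (0.0833 and 0.0820). Rpl37 was further lost without Satb1 cKO replicate 2 (0.0928) or 3 (0.0806).

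Further rises were found in the large subunit. Rpl27, of the large subunit and one of the genes mutated in human Diamond-Blackfan anaemia, had 569, 539.8 and 526 CPM in Satb1 cKO libraries, against 492, 498 and 493 CPM in control libraries (log2 fold change 0.14, SE 0.038, adjusted p = 0.0110). Its cKO libraries were above the controls, and its control libraries were tightly grouped. Rpl18 rose by less (log2 fold change 0.12, SE 0.032, adjusted p = 0.00832).

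**Figure D3:**
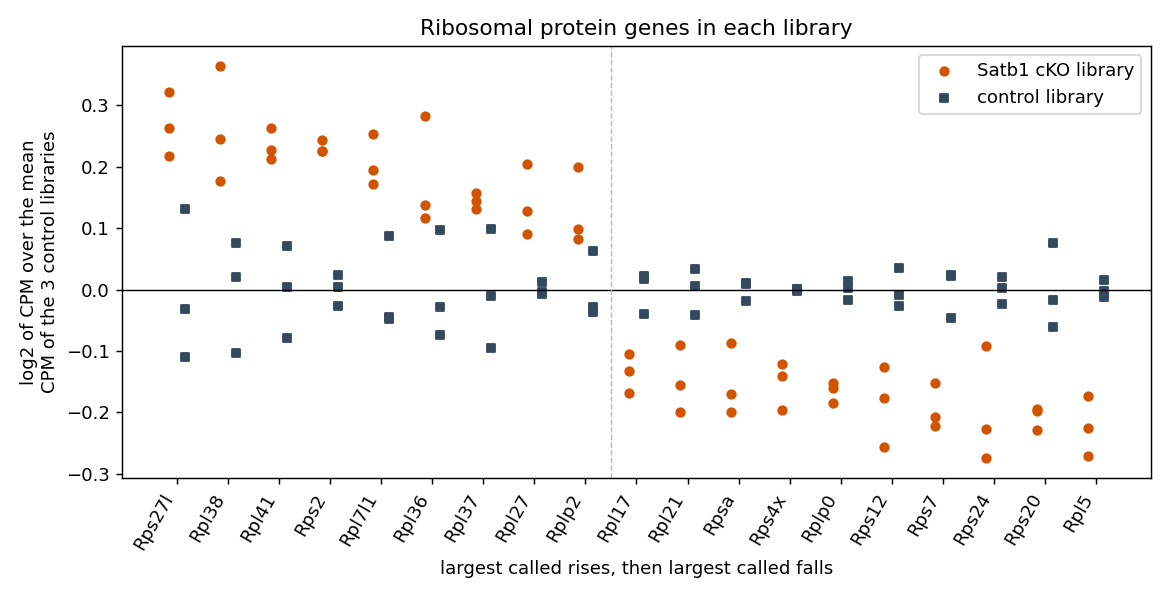
Level of the largest called rises and falls reported by name in each library, as log2 of CPM over the mean CPM of the control libraries (circles, Satb1 cKO; squares, control). In each gene shown the circles and squares occupy separate ranges, and the gap is narrowest for Rplp2, Rpl36 and Rpl37 among the rises.

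Of the stalk proteins, which recruit the GTPase translation factors to the large subunit, one fell, one rose and one did not pass the test. Rplp0, the base of the stalk, fell: it had 3576, 3596 and 3515 CPM in Satb1 cKO libraries, against 4002, 3949 and 4033 CPM in control libraries (log2 fold change -0.17, SE 0.024, adjusted p = 0.000222). Rplp1 had 1397, 1345 and 1356 CPM in Satb1 cKO libraries, against 1365, 1402 and 1327 CPM in control libraries, and its groups overlapped (log2 fold change 0.0014, SE 0.032, adjusted p = 0.976). Rplp2, the dimer partner of Rplp1, had 878, 809 and 818 CPM in Satb1 cKO libraries, against 745, 798 and 749 CPM in control libraries (log2 fold change 0.13, SE 0.042, adjusted p = 0.0283), with the lowest cKO library just above the highest control library. The call of Rplp2 was lost without control replicate 1 (adjusted p = 0.0850), control replicate 3 (0.115), Satb1 cKO replicate 1 (0.0951) or Satb1 cKO replicate 3 (0.0509), with log2 fold changes of 0.10, 0.11, 0.092 and 0.14.

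The 5S ribonucleoprotein holds RPL5 and RPL11. Rpl5 (ENSMUSG00000058558.12, chromosome 5, 107900502 to 107909005, plus strand, GRCm38) showed the largest fall of the set, with 1379.9, 1476 and 1424 CPM in Satb1 cKO libraries, against 1649.7, 1682 and 1662 CPM in control libraries (log2 fold change -0.22, SE 0.032, adjusted p = 0.000212). Its partner Rpl11 had 837, 846 and 792 CPM in Satb1 cKO libraries, against 815, 814 and 825 CPM in control libraries (log2 fold change 0.013, SE 0.035, adjusted p = 0.793), and its groups overlapped. All cKO libraries were below all control libraries for Rpl5. Exons of Fam69a on the other strand cover part of the Rpl5 mRNA (46.6%, genes on either strand counted), and whether counting used strand is not given in the sources used here.

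Most of the other large falls were small subunit genes. Rps20, a protein of the small subunit head, had 785, 802 and 804 CPM in Satb1 cKO libraries, against 881, 969 and 908 CPM in control libraries (log2 fold change -0.21, SE 0.039, adjusted p = 0.00135). Rps24 had 1186, 1081 and 1045 CPM in Satb1 cKO libraries, against 1244, 1282 and 1267 CPM in control libraries (log2 fold change -0.20, SE 0.044, adjusted p = 0.00395), and its cKO replicate 1 was nearer to the control libraries than the others. Both are on the list of genes mutated in human Diamond-Blackfan anaemia. Rps7, another gene of that list, had 1088, 1131 and 1078 CPM in Satb1 cKO libraries, against 1217, 1277 and 1278 CPM in control libraries (log2 fold change -0.19, SE 0.034, adjusted p = 0.000798). Rps12 had 1339.6, 1467 and 1416 CPM in Satb1 cKO libraries, against 1590.1, 1639.8 and 1572 CPM in control libraries (log2 fold change -0.19, SE 0.037, adjusted p = 0.00191), and 81.7% of its 100-base windows also occur at other loci. No cKO library of these 4 genes reached the lowest control library.

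Rps4x, the X-linked form of the small subunit protein S4, had 2012, 2039.6 and 1937 CPM in Satb1 cKO libraries, against 2220.2, 2221 and 2214 CPM in control libraries (log2 fold change -0.15, SE 0.028, adjusted p = 0.00130). Rpsa, which also serves as a laminin receptor precursor, had 3457, 3265 and 3197 CPM in Satb1 cKO libraries, against 3698, 3623 and 3692 CPM in control libraries (log2 fold change -0.15, SE 0.031, adjusted p = 0.00237). The control libraries of both genes were close to each other, and the cKO libraries all lay below them. Rpl21, of the large subunit, had 769.7, 735 and 713 CPM in Satb1 cKO libraries, against 796, 823 and 839 CPM in control libraries (log2 fold change -0.15, SE 0.038, adjusted p = 0.00879). Rpl17, at the exit of the peptide tunnel, had 826, 811 and 791 CPM in Satb1 cKO libraries, against 865, 899 and 902 CPM in control libraries (log2 fold change -0.14, SE 0.034, adjusted p = 0.00727). Further called falls, Rps9, Rps27a, Rpl12, Rpl4, Rps15a, Rpl23, Rps13, Rps6 and Rps3a1, had log2 fold changes from -0.13 to -0.10. Rps6, the substrate of S6 kinase, was among them with 1113, 1157 and 1095 CPM in Satb1 cKO libraries, against 1206, 1208 and 1209 CPM in control libraries (log2 fold change -0.11, SE 0.031, adjusted p = 0.0175).

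Most of these smaller falls lost their call when a library was left out, with log2 fold changes that kept their sign. Without control replicate 2, Rps27a, Rps15a, Rpl23, Rps13 and Rps3a1 were lost (adjusted p = 0.0522, 0.0611, 0.0742, 0.0697 and 0.0574). Without control replicate 3, Rpl12, Rpl23, Rps13, Rps6 and Rps3a1 were lost (0.0654, 0.0561, 0.0801, 0.0558 and 0.0501). Without Satb1 cKO replicate 1 the calls of Rps15a, Rps13 and Rps3a1 went (0.0523, 0.0725 and 0.0634), without replicate 2 that of Rpl23 (0.0759), and without replicate 3 those of Rps27a, Rpl12, Rps15a, Rpl23, Rps6 and Rps3a1 (0.0596, 0.0608, 0.0606, 0.0661, 0.0623 and 0.0822). Rps9 and Rpl4 were not lost in any of these fits. Over 14 alternative fits (other scalings, filters, DESeq2, a replicate block and left-out libraries), 8 of the 11 rises and 12 of the 20 falls were called the same way each time. With scaling on the members' own reads as a further alternative, 8 rises and 10 falls were. That scaling moves fold changes upward and so tests the falls, not the rises.

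How the falls and rises are divided depends on what the counts are scaled to. When library sizes were set to the reads of the ribosomal protein genes themselves, which reads each gene relative to the set, 18 members were higher and 10 lower, against 25.2% and 16.6% of all tested genes. Of these 28, 21 were also called with TMM scaling, and 10 of the 20 falls lost their call. Rps2, Rpl41, Rpl38 and Rps27l were still higher (log2 fold changes 0.28, 0.28, 0.31 and 0.31), and Rpl5, Rps20, Rps24 and Rps7 still lower (-0.18, -0.16, -0.15 and -0.15), so that the proportions between members differed between the groups on that scale too. This scaling moved log2 fold changes upward (median of all tested genes 0.049, against 0.0034 with TMM). The rises were therefore not put to a test by it, and 0 of the 11 lost their call.

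Members of structural and disease groups were called in both directions or did not pass. Of 9 genes whose proteins line or rim the peptide exit tunnel, 2 fell (Rpl4 and Rpl17; 22.2%), 0 rose and 7 did not pass the test, with a median log2 fold change of 0.035. Of 21 genes mutated in human Diamond-Blackfan anaemia, 2 rose (9.52%), 5 fell (23.8%) and 14 did not pass, with a median of 0.013. Over all tested genes 21.6% were higher and 20.7% lower, and no difference of these lists from other genes was tested. Rps19, the gene most often mutated in that disease, had 639, 663 and 681 CPM in Satb1 cKO libraries, against 653, 685 and 639 CPM in control libraries and overlapped between groups (log2 fold change 0.0036, SE 0.039, adjusted p = 0.949).

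Some members are paralogs or related proteins encoded elsewhere in the genome, and 5 of the 8 had enough reads to be tested. Rps27l, a paralog of Rps27 and a p53 target in human cells, was the largest called rise, with 93.4, 90.5 and 97.3 CPM in Satb1 cKO libraries, against 85.2, 76.1 and 72.1 CPM in control libraries (log2 fold change 0.27, SE 0.062, adjusted p = 0.00504). Rps27 had 252, 230.4 and 221 CPM in Satb1 cKO libraries, against 232, 271 and 249 CPM in control libraries (log2 fold change -0.094, SE 0.063, adjusted p = 0.258), and its groups overlapped. Per kilobase of mRNA, Rps27l made up 20.4%, 21.4% and 23.3% of the pair's reads in Satb1 cKO, against 20.3%, 16.3% and 16.7% in control (two-sided exact permutation p = 0.1, the smallest possible), with the first cKO and the first control library nearly level. Of the Rps27 windows of 100 bases, 98.4% occur at other loci, and 0% of those of Rps27l. Rps27rt, a single-exon gene with 89.5% of windows at other loci, had 4.78, 4.63 and 3.68 CPM in Satb1 cKO libraries, against 4.73, 5.30 and 4.47 CPM in control libraries (log2 fold change -0.14, SE 0.164, adjusted p = 0.519).

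Rpl7l1, related to Rpl7 and known as a nucleolar factor of large subunit assembly, rose: it had 338, 319 and 324 CPM in Satb1 cKO libraries, against 301, 275 and 274 CPM in control libraries (log2 fold change 0.21, SE 0.046, adjusted p = 0.00406). Rpl7 did not pass the test (log2 fold change -0.046, SE 0.030, adjusted p = 0.252). Rpl22l1, the paralog of Rpl22 and known from mouse T cell development, had 17.4, 17.9 and 13.8 CPM in Satb1 cKO libraries, against 14.2, 15.4 and 15.2 CPM in control libraries (log2 fold change 0.14, SE 0.109, adjusted p = 0.339). Rpl22 had 289, 269 and 264 CPM in Satb1 cKO libraries, against 274, 262 and 259 CPM in control libraries (log2 fold change 0.049, SE 0.045, adjusted p = 0.415). Both genes overlapped between groups, and Rpl22l1 was 18.3%, 19.8% and 16.2% of the pair's reads per kilobase in Satb1 cKO, against 16.1%, 17.9% and 17.9% in control (exact permutation p = 0.4).

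The counterparts of 2 paralogs with few reads did not pass the test. Rpl36a had 258, 239 and 243 CPM in Satb1 cKO libraries, against 264, 272 and 255 CPM in control libraries (log2 fold change -0.10, SE 0.044, adjusted p = 0.105). Rpl39 had 156, 160.0 and 162 CPM in Satb1 cKO libraries, against 143, 163 and 130.3 CPM in control libraries (log2 fold change 0.13, SE 0.067, adjusted p = 0.137). The groups overlapped for both genes.

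Several members had very few reads. Rpl24 (chromosome 16, 55966275 to 55971435, plus strand, GRCm38) was counted in 2, 2 and 2 reads in Satb1 cKO and 4, 8 and 5 reads in control libraries. Rps10 was counted in 70, 48 and 35 reads in Satb1 cKO and 49, 44 and 33 reads in control, and Rpl13a in 130, 110 and 114 against 123, 90 and 93. Rpl36al was counted in 27, 39 and 24 reads in Satb1 cKO and 36, 16 and 17 in control. These 4 are the members whose principal mRNA shares the most with exons of another gene on the same strand: 71.5% of Rpl24 (with Gm28037), 53.6% of Rps10 (with the read-through gene RPS10-NUDT3), 59.3% of Rpl13a (with Gm45713 and Mir5121) and 63.1% of Rpl36al (with Gm49383). Those 5 partner genes had 0 reads in all 6 libraries. Besides these, Rpl19 shares 10.7% of its mRNA on the same strand, and no other member shares any.

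Levels followed that division. The 4 genes stood at 0.344 to 6.07 CPM per kilobase of mRNA, and the 74 other members outside the paralogs at 59.4 to 3047 CPM per kilobase, with a median of 876.3. The lowest of the 74, Rpl23a and Rpl30, share 55.4% and 57.4% of their mRNA with genes on either strand, and 80.0% of the Rpl23a windows also occur at other loci. Sharing of that kind also occurs at higher levels: Rpl35 and Rps25 share 68.3% and 52.2% on either strand and had 502 and 552 CPM per kilobase. The 27 members with at least 50% of windows at other loci had a median of 1245 CPM per kilobase. Reads that overlap several genes stand on a line of their own in the tables (5.55 ± 0.0372% of reads in Satb1 cKO and 5.42 ± 0.0147% in control, SD, n = 3 each), and how many of them belong to these genes was not tested. None of Rps10, Rpl13a, Rpl36al, Rpl23a and Rpl30 passed the test (adjusted p = 0.544, 0.396, 0.405, 0.0848 and 0.344), and Rpl24 was not tested.

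The other untested members are Rpl10l, Rpl3l and Rpl39l, paralogs known from testis or striated muscle. Rpl10l had 0 reads in every library. Rpl3l had 0, 3 and 3 reads in Satb1 cKO and 4, 1 and 1 in control, and Rpl39l 5, 7 and 0 against 3, 1 and 12.

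**Figure D4:**
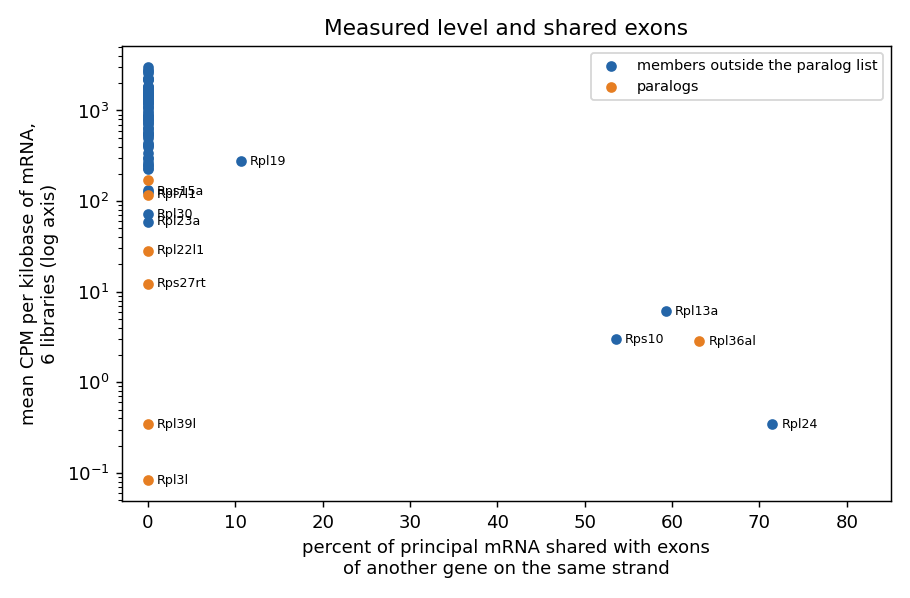
Mean level of each member with reads, in CPM per kilobase of principal mRNA over 6 libraries (log axis), against the percent of that mRNA shared with exons of another gene on the same strand. Rps10, Rpl13a, Rpl36al and Rpl24 lie at the right, at 6.07 or less, while members outside the paralogs with no such sharing start at 59.4.

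The median mRNA was shorter among the called rises than among the called falls. The median principal mRNA was 661 bases for the 11 rises (383 to 2989) and 1151 bases for the 20 falls (584 to 5179), and 756 bases for the 50 genes that did not pass. Among transcripts of equal annotation rank the longest was taken as principal, so a length may exceed that of the form expressed. For Rps15a it was 5179 bases with 390 coding, and for Rps20 3706 with 357. Median coding length was 345 bases for the rises, 540 for the falls and 435 for the genes that did not pass. Across the 81 tested genes, log2 fold change and mRNA length had a Spearman correlation of -0.37, and across 11263 tested protein-coding genes of -0.11. With coding length it was -0.36 and -0.13. These points share the same 6 libraries, and members also differ in level and base composition: rho was 0.33 with GC content and -0.40 with the level per kilobase among the members, and 0.12 and 0.023 over the protein-coding genes.

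By length, limits being chosen after the values were seen, the 22 members of up to 600 bases held 4 rises and 2 falls, and the 32 of 600 to 1000 bases held 4 and 7. The 23 of 1000 to 2500 bases held 1 rise and 9 falls, and the 4 longer ones 2 of each. In the shortest class this is 18.2% higher and 9.09% lower, against 19.4% and 8.53% of all tested genes of that length. The shares of members and of all tested genes were 12.5% and 27.2% higher and 21.9% and 10.4% lower at 600 to 1000 bases. At 1000 to 2500 bases they were 4.35% and 26.6% higher and 39.1% and 17.3% lower. Medians of log2 fold change were 0.055, 0.0082, -0.065 and 0.0043 in these 4 classes, and 0.11, 0.078, 0.041 and -0.014 for tested genes outside the set in the same classes. The part of length in the fold changes was not tested.

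**Figure D5:**
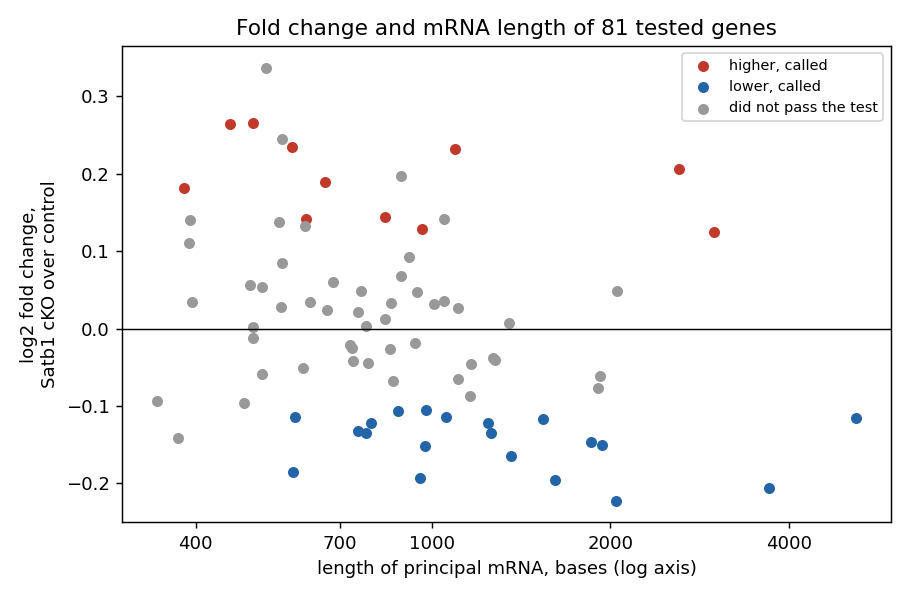
Log2 fold change of Satb1 cKO over control against the length of the principal mRNA (log axis) for the 81 tested members. Called rises (red) have a median length of 661 bases and called falls (blue) of 1151 bases, and the ranges overlap.

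Among ribosomal proteins with other names, Rack1 fell, and among other TOP mRNAs falls outnumbered rises. Fau, which encodes a ubiquitin-like fusion of a small subunit protein, did not pass the test (log2 fold change -0.031, SE 0.044, adjusted p = 0.604). Rack1, a scaffold on the small subunit, was at 1962 ± 20.4 CPM in Satb1 cKO and 2062 ± 23.2 CPM in control (SD, n = 3 each) and fell (-0.072, SE 0.026, adjusted p = 0.0474). Of 18 elongation factors and other TOP mRNAs, 8 fell and 1 rose (Eef1d, 0.20, SE 0.043), with a median log2 fold change of -0.074, beside 20.7% and 21.6% of all genes. Tpt1, a classic TOP mRNA, fell to 1796 ± 18.8 CPM in Satb1 cKO, against 2400 ± 64.8 CPM in control (log2 fold change -0.42, SE 0.029, adjusted p = 9.50e-07). Eef1b2, encoding the exchange factor of eEF1A, fell (-0.26, SE 0.038), as did Pabpc1, the poly(A)-binding protein (-0.18, SE 0.026), and Eef2, the translocase (-0.12, SE 0.021), whereas Eef1a1 did not pass the test (0.042, SE 0.029).

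Other translation genes are given beside the shares over all tested genes, 21.6% higher and 20.7% lower. The TOP list and the lists that follow were chosen with earlier results of these data known, so their shares test no difference. Of 35 initiation factor genes, 17 rose (48.6%) and 5 fell (14.3%: Eif4b, Eif3f, Eif3e, Eif4g3 and Eif3h, from -0.16 to -0.098; median log2 fold change 0.095), and 5 genes stand on both this list and the TOP list. Eif6, which keeps free large subunits from joining, was at 257 ± 3.74 CPM in Satb1 cKO and 189 ± 6.96 CPM in control (log2 fold change 0.44, SE 0.042, adjusted p = 9.71e-06). Eif4a1, the helicase of cap-dependent initiation, was at 2128 ± 43.6 CPM in Satb1 cKO and 1665 ± 72.4 CPM in control (log2 fold change 0.35, SE 0.035, adjusted p = 1.43e-05). Eif2b3 and Eif3g, subunits of the guanine nucleotide exchange factor and of eIF3, rose as well (0.52 and 0.37, SE 0.066 and 0.048).

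Of 9 tested chaperones of ribosomal proteins and 5S particle factors, 7 rose (77.8%) and 0 fell, against 21.6% and 20.7% of all tested genes (median log2 fold change 0.22). Grwd1, known as the chaperone of RPL3, was at 133 ± 1.95 CPM in Satb1 cKO and 105 ± 8.65 CPM in control (log2 fold change 0.34, SE 0.057, adjusted p = 0.000591). Rrs1 (0.32, SE 0.054) and Heatr3 (0.27, SE 0.051), which act on the 5S particle of RPL5 and RPL11, and Ltv1, an assembly factor of the small subunit (0.22, SE 0.046), rose too. Of 77 tested mitochondrial ribosomal protein genes, 19 rose (24.7%) and 3 fell (3.90%, Mrpl4, Mrpl45 and Mrpl18, from -0.18 to -0.13), against 21.6% and 20.7% of all tested genes, with a median of 0.11, and Mrps7 and Mrpl12 had the smallest p (0.29 and 0.26, SE 0.048 and 0.056). These lists were chosen with earlier results of these data known. Whether they differ from all tested genes or from the cytosolic ribosomal proteins was not tested.

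Regulators of ribosomal protein genes were called at shares near those of all tested genes. Of 25 tested genes of the mTOR, TOP and promoter control list, 7 rose (28%) and 5 fell (20%), against 21.6% and 20.7% of all tested genes (the falls were Pdcd4, Eif4ebp2, Max, Tsc1 and Maf1), the median log2 fold change being 0.0099. Larp1, which binds TOP mRNAs, was at 1101 ± 35.5 CPM in Satb1 cKO and 868.5 ± 21.4 CPM in control (log2 fold change 0.34, SE 0.035, adjusted p = 1.98e-05). Myc, an activator of ribosome production, was at 632 ± 11.3 CPM in Satb1 cKO and 480.0 ± 40.3 CPM in control (log2 fold change 0.40, SE 0.053, adjusted p = 0.000137). Pdcd4, an inhibitor of eIF4A, fell to 77.0 ± 6.12 CPM in Satb1 cKO, against 153 ± 11.8 CPM in control (log2 fold change -0.99, SE 0.068, adjusted p = 8.55e-07), and Eif4ebp2, an inhibitor of eIF4E, fell by 0.37 on the log2 scale (SE 0.040). Eif4ebp1, also an inhibitor of eIF4E, rose instead (0.25, SE 0.082, adjusted p = 0.0306), with overlapping groups. The other rises were Larp4, Gabpb1, Rheb and Rps6kb2, from 0.18 to 0.28.

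Of 9 genes for p53, its regulators and its targets, 5 rose (55.6%) and 1 fell (11.1%), against 21.6% and 20.7% of all tested genes. Cdkn1a, encoding the cell cycle inhibitor p21, was at 255 ± 16.4 CPM in Satb1 cKO and 135 ± 27.9 CPM in control (log2 fold change 0.92, SE 0.111, adjusted p = 6.42e-05). Sesn2 (0.43, SE 0.069), Bbc3 (0.35, SE 0.082), Phlda3 (0.23, SE 0.082) and Mdm2 (0.14, SE 0.050) rose, Mdm4 fell (-0.13, SE 0.040), and Trp53 itself did not pass the test (-0.045, SE 0.047, adjusted p = 0.472). Libraries of the groups overlapped for Phlda3 and Mdm2. Bax (0.14, SE 0.070, adjusted p = 0.123) and Ccng1 (0.047, SE 0.064, adjusted p = 0.587) did not pass either. This list too was chosen with earlier results of these data known. Whether these values are related to those of ribosomal protein genes was not tested. Of 11 tested genes of ribosome rescue and quality control, 3 rose (27.3%) and 2 fell (18.2%), near the 21.6% and 20.7% of all tested genes. The rises were Map3k20 (0.49, SE 0.150), a kinase that senses colliding ribosomes, Usp10 (0.25, SE 0.045), which deubiquitinates small subunits, and Zfp598 (0.21, SE 0.044), a ligase at colliding ribosomes. The falls were Nemf (-0.20, SE 0.062), which marks stalled large subunits, and Ltn1 (-0.14, SE 0.043), the ligase acting with it.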

How the data were processed

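Per the submitters' processing notes, which name STAR 2.7.3a, HTSeq 0.12.4 and mm10, the authors aligned reads and counted them per gene. The strand setting and annotation release are not given here by any source. Deposited count tables hold whole reads per gene, without normalization, for 6 libraries. Of 55401 genes, 55141 matched GENCODE M21 by ID. Summary lines for reads on no gene entered neither library sizes nor tests.

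Genes passing filterByExpr (minimum count 10) were scaled by TMM and tested with edgeR 4.0.16 (R 4.3.3) by quasi-likelihood, with Benjamini-Hochberg adjustment over 13364 genes and calls at adjusted p under 0.05. The biological coefficient of variation was 6.27%. Within groups, log2 CPM values correlated at 0.992 to 0.993, and counts differed beyond sampling noise (chi-square per degree of freedom 2.09 to 6.90), so no pair was counted as 1 library deposited 2 times. This does not show that they came from separate mice. The procedure was tested on simulated data. Changes of 1.25-fold and 1.5-fold were recovered in 38% and 74% of genes drawn from all tested genes (50 each). For ribosomal protein genes these were 90% and 95% (20 each), and 12 of all 199 calls were false. The simulation changed few genes and gave 199 calls among 13123, against 5651 among 13364 in the data. These rates therefore do not give the power reached in the data. In the simulation, members and other genes were not tested at equal power, so their called shares may not be at equal power either. Shares of reads were compared by exact permutation over libraries. Levels per kilobase and mRNA lengths use the APPRIS principal mRNA, with ties broken by transcript support level and then by the longest transcript. Windows of 100 bases of each mRNA were looked up among all annotated transcripts. Promoter sequences are from RefSeq (GRCm38.p6).

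Members and lists were chosen with earlier results of these data known. Some genes are counted but not reported by name here. Otherwise, values per library are given for the 10 largest called rises and falls, the 5 highest levels per kilobase of exon, and stalk, 5S and paralog members. From other lists, the up to 4 called genes of smallest p are named. Further genes completing a count of 5 or fewer, the other rises of the mTOR, TOP and promoter control list, and members such as Rps19 and Rps6, were named after their values were seen. Alternatives were other scalings, no filter, DESeq2 1.42.0, a replicate block and leaving out each library.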

Additional observations from a re-analysis of the deposited data

How the results depend on the processing

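With reads scaled on the ribosomal protein genes themselves, 18 members were higher and 10 lower, with a median log2 fold change of 0.047, since this scaling moved the median of all tested genes to 0.049. Without a filter on low counts the median of the members was -0.026. Rplp1, which did not pass the test, changed sign under upper-quartile scaling (-0.0096), library totals (-0.0032), TMM without ribosomal protein genes (-0.0045), no filter (-0.014), without immunoglobulin, T cell receptor, globin and mitochondrial genes (-0.0054) and DESeq2 (-0.0017), and when a library was left out it ranged from -0.022 to 0.012. Rpl11, also not past the test, changed sign without the filter (-0.0025) and ranged from -0.011 to 0.038 when a library was left out. The cause was not tested. Upper-quartile scaling ended the calls of Rplp2 (adjusted p = 0.0572) and Rpl37 (0.0568). Scaling on the members ended 10 of the 20 falls, among them Rpl17 (0.0557) and Rpl4 (0.0857), which held elsewhere, and Rps27a, Rpl12, Rps15a, Rpl23, Rps13, Rps6 and Rps3a1 (0.0939 to 0.182). Leaving out 1 library gave 8 to 13 higher and 14 to 21 lower members. DESeq2 called 11 higher and 20 lower, the 31 of edgeR. Same-numbered libraries did not deviate together (r = 0.021, -0.013 and 0.028), and a replicate block gave 14 higher and 21 lower members. With 3 libraries a group, the exact permutation test cannot go below p = 0.1, and members with few reads have wide intervals.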
